A study of Mus musculus with 11 samples.

Results

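Galectins are small lectins that bind β-galactosides, and 4 of them, Lgals1, Lgals3, Lgals8 and Lgals9, were followed together with Lgals3bp, a secreted glycoprotein that galectin-3 binds, across 3 regions of the mouse epididymis. These 5 genes were taken by name from the 37583 genes of the expression table, and all 5 passed the filter on low counts that left 15116 genes for testing. The cells were EGFP+ mononuclear phagocytes, the family of macrophages, dendritic cells and monocytes, taken by 2 rounds of cell sorting from 12 week old CX3CR1 EGFP +/- mice, in which Cx3cr1 drives EGFP. The initial segments (IS) gave 4 libraries, caput/corpus 3 and cauda 4, in the order in which sperm pass along the duct, with 4 epididymides pooled in each. All groups carry the same reporter allele, and the sort takes whatever cell has EGFP, so that each library is a mixture. The labels do not say which animals gave each library, so p-values measure the spread between these libraries.

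Galectins are made in the cytosol and leave the cell without a signal peptide. Outside it they cross-link glycoproteins that carry N-acetyllactosamine chains, and inside it galectin-3, galectin-8 and galectin-9 bind glycans that are laid bare when an endosome or lysosome is broken. Macrophages are a main source of galectin-3, long used under the name Mac-2 as a macrophage antigen. The family is sorted by build: galectin-1 is of the prototype form with a lone carbohydrate-binding domain that pairs with itself, galectin-3 is the chimera form with a collagen-like tail, and galectin-8 and galectin-9 are tandem-repeat forms with a pair of different binding domains.

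Libraries held 16873180 to 31737132 reads on genes, and each member had between 1309 and 33568 reads in every library. For 3 libraries (replicate 2 of IS, replicate 1 of caput/corpus and replicate 1 of cauda) the deposited count file and the column of that name in the deposited RPKM table hold different reads. Values below follow the named columns, and fits of the other 8 libraries alone, and of the counts as filed, are given for the members and for the calls of the gene lists. Cauda replicate 1 stood apart: reads fell on 13434 genes there and on 17168 to 17789 genes in cauda replicates 2 to 4. The 5 markers of the sorted lineage (Cx3cr1, Csf1r, Ptprc, Adgre1 and Itgam) had reads in every library, with summed levels of 5863 to 6585 CPM in IS, 4287 to 5317 in caput/corpus and 3057 to 4205 in cauda. CPM, the unit of level used here, is a library's read count scaled to its TMM effective size.

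The promoter sequences are shown for the member whose level differed most between regions, Lgals3, and for a member that passed the edgeR test in no comparison, Lgals9. RefSeq (GRCm38.p6) gives a start site for 4 of the 5 genes, all but Lgals1, and the 250 bases before it were searched on both strands for 10 short motifs. The Lgals3 window is chr14:47373610-47373859 on the plus strand, and the Lgals9 window is chr11:78984925-78985174 on the minus strand, each printed in the gene's own direction.
Lgals3: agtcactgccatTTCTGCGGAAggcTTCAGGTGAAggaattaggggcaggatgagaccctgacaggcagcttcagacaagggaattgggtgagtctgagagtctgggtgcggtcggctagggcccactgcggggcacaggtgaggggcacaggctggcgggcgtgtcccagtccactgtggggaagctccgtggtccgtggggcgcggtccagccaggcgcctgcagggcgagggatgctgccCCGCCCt
Lgals9: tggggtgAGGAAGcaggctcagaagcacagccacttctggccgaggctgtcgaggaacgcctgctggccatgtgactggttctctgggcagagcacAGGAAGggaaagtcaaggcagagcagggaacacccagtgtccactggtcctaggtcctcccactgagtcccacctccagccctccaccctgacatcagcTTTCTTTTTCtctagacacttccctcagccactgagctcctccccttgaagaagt
In the Lgals3 window the capitals mark 2 matches to TTCNNNNGAA, the spacing known for STAT6, and 1 to the GC box GGGCGG, written there on the other strand. Of 32851 such windows in the table, 5.85% hold the STAT6 letters and 32.7% a GC box. In the Lgals9 window the capitals mark 2 matches to the ETS core AGGAAG (29.5% of windows) and 1 on the other strand to GAAANNGAAA, the letters of an interferon response element (2.98% of windows). The matches in each window do not overlap one another. AP-1 (TGANTCA), GAGGAAGT, which holds the ETS core, CRE (TGACGTCA), TTCNNNGAA, CACGTG and TTGCGNAA had no match in any of the 4 windows, where they occur in 6.75%, 2.44%, 1.55%, 7.02%, 6.02% and 0.670% of all windows, and those of Lgals3bp and Lgals8 held none of the 10. These are matches of letters, not sites shown to be bound.

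Lgals1 and Lgals3 were lower in IS cells than in cells of both later regions, while Lgals3bp, Lgals8 and Lgals9 passed the test in no comparison. Lgals1 was also lower in caput/corpus than in cauda, a call that most other ways of fitting did not keep. So 2 of the 5 members were called between IS and caput/corpus, both lower in IS, where 3.78% of all tested genes were called (0.794% higher in IS, 2.98% higher in caput/corpus). Between IS and cauda 2 of 5 were called, again lower in IS, where 16.5% of all genes were called (7.40% higher in IS, 9.06% higher in cauda). Between caput/corpus and cauda 1 of 5 was called, lower in caput/corpus, against 0.615% of all genes (0.582% higher in caput/corpus, 0.0331% higher in cauda).

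**Figure D1:**
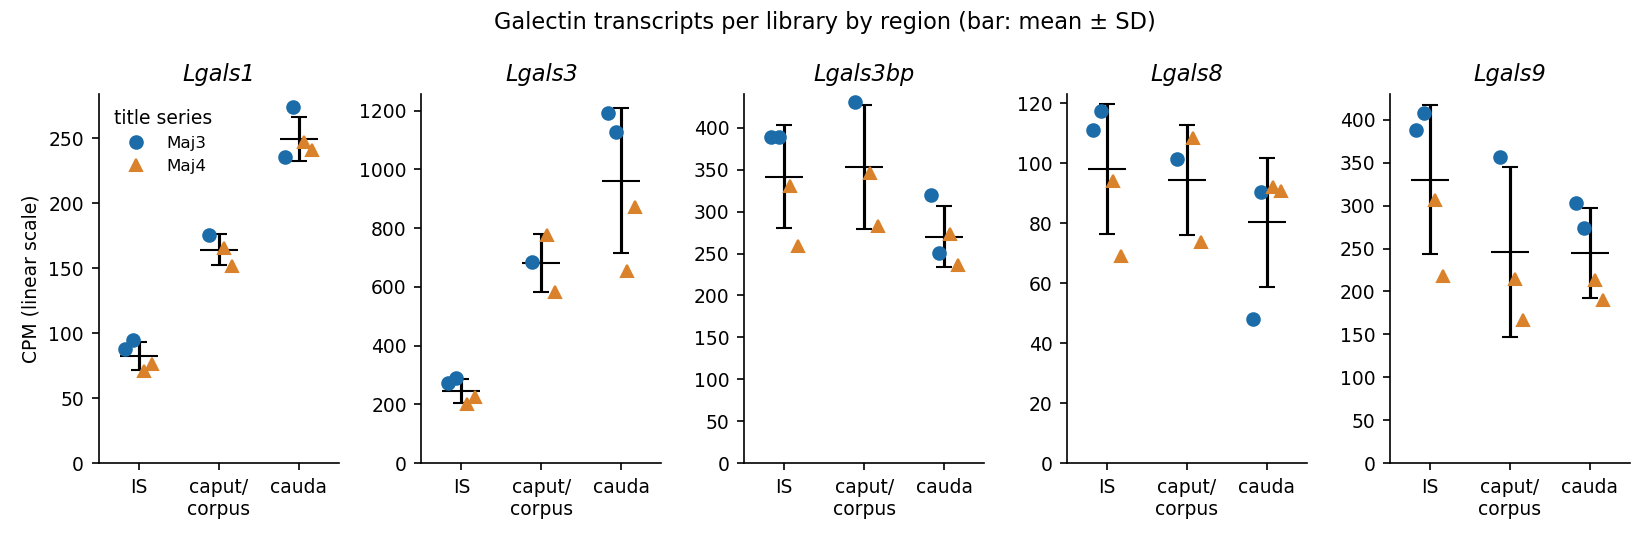
Level of each of the 5 genes in every library (y axis, CPM on a linear scale that starts at 0) by region (x axis), with circles for libraries of the title series Maj3, triangles for Maj4 and bars for the mean ± SD of 4 IS, 3 caput/corpus and 4 cauda libraries. Lgals1 falls into 3 separate bands by region, and the IS libraries of Lgals3, at 200 to 290 CPM, lie under all others, while regions overlap for the other 3 genes.

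Galectin-1, known for its effects on T cell survival and on the regulatory state of macrophages, is the product of Lgals1 (ENSMUSG00000068220). It had 87.7, 94.7, 70.6 and 76.1 CPM in IS replicates 1 to 4, 176, 166 and 152 CPM in caput/corpus replicates 1 to 3, and 236, 274, 247 and 241 CPM in cauda replicates 1 to 4. No library of any region overlapped with a library of another. The means were 82.3 ± 10.9 CPM in IS, 164 ± 12.1 in caput/corpus and 249 ± 17.2 in cauda (SD, n = 4, 3 and 4).

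By the edgeR quasi-likelihood test, Lgals1 had a log2 fold change of -1.03 ± 0.10 for IS minus caput/corpus (SE, 95% interval -1.26 to -0.81, adjusted p = 0.00151), 2.04-fold higher in caput/corpus. For IS minus cauda it was -1.61 ± 0.10 (-1.82 to -1.39, adjusted p = 1.16e-05), 3.04-fold higher in cauda. By p-value the gene stood 11th and 12th of 15116 in these comparisons. For caput/corpus minus cauda it was -0.57 ± 0.10 (-0.80 to -0.35, adjusted p = 0.0386), 1.49-fold higher in cauda. That last call was lost in 17 of 25 alternatives, with any library but cauda replicate 1 left out (10 fits, adjusted p 0.0548 to 0.260), with the replicate number as a block (-0.60, adjusted p = 0.0889) and in the 8 matching libraries (-0.61, adjusted p = 0.110), while its direction held in all 25.

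Galectin-3 is the product of Lgals3 (ENSMUSG00000050335). It had 272, 290, 200 and 226 CPM in IS replicates 1 to 4, 683, 778 and 582 CPM in caput/corpus replicates 1 to 3, and 1191, 1127, 655 and 873 CPM in cauda replicates 1 to 4. The highest IS library lay under the lowest library of either other region, and the caput/corpus and cauda libraries overlapped. The means were 247 ± 41.0 CPM in IS, 681 ± 98.0 in caput/corpus and 962 ± 246 in cauda.

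The log2 fold change of Lgals3 was -1.55 ± 0.16 for IS minus caput/corpus (95% interval -1.91 to -1.20, adjusted p = 0.00167), 2.93-fold higher in caput/corpus, and -1.95 ± 0.15 for IS minus cauda (-2.28 to -1.61, adjusted p = 6.43e-05), 3.86-fold higher in cauda. It stood 16th and 28th of 15116 genes by p-value. Caput/corpus and cauda did not pass the test, at -0.40 ± 0.16 (-0.76 to -0.04, adjusted p = 0.366). The spread of Lgals3 in cauda, a coefficient of variation of 25.6%, stood against 6.88% for Lgals1 in the same libraries, with both Maj3 libraries above both Maj4 libraries for Lgals3.

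Both genes were also lower in IS within each title series. In the 6 Maj4 libraries Lgals1 averaged 73.4 CPM in IS, 159 in caput/corpus and 244 in cauda, and Lgals3 averaged 213 CPM in IS, 680 in caput/corpus and 764 in cauda. In the 5 Maj3 libraries Lgals1 averaged 91.2 CPM in IS, 176 in caput/corpus and 255 in cauda, and Lgals3 averaged 281 CPM in IS, 683 in caput/corpus and 1159 in cauda. Tested in Maj4 alone, IS minus caput/corpus was -1.11 for Lgals1 and -1.67 for Lgals3 (adjusted p = 0.0171 and 0.0151), and IS minus cauda was -1.72 and -1.83 (adjusted p = 0.00223 and 0.00501). In Maj3 alone, where caput/corpus has 1 library whose spread was taken from the other regions, IS minus caput/corpus was -0.97 and -1.31 (adjusted p = 1 and 0.691), and IS minus cauda -1.43 and -1.99 (adjusted p = 0.0786 and 0.0456). Lgals1 for caput/corpus minus cauda was -0.61 in Maj4 alone and -0.46 in Maj3 alone (adjusted p = 0.219 and 0.990).

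In the 8 libraries free of the conflict, IS minus caput/corpus was -1.10 for Lgals1 and -1.71 for Lgals3 (adjusted p = 0.00327 and 0.00315), and IS minus cauda -1.70 and -1.91 (adjusted p = 8.26e-05 and 0.000267). With the counts as filed, the direction was the same and no call was made: IS minus caput/corpus was -0.51 and -0.65 (adjusted p = 0.703 and 0.764), and IS minus cauda -1.26 and -1.11 (adjusted p = 0.0950 and 0.254). Without cauda replicate 1, IS minus cauda was -1.67 and -1.89 (adjusted p = 5.77e-06 and 5.30e-05).

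**Figure D2:**
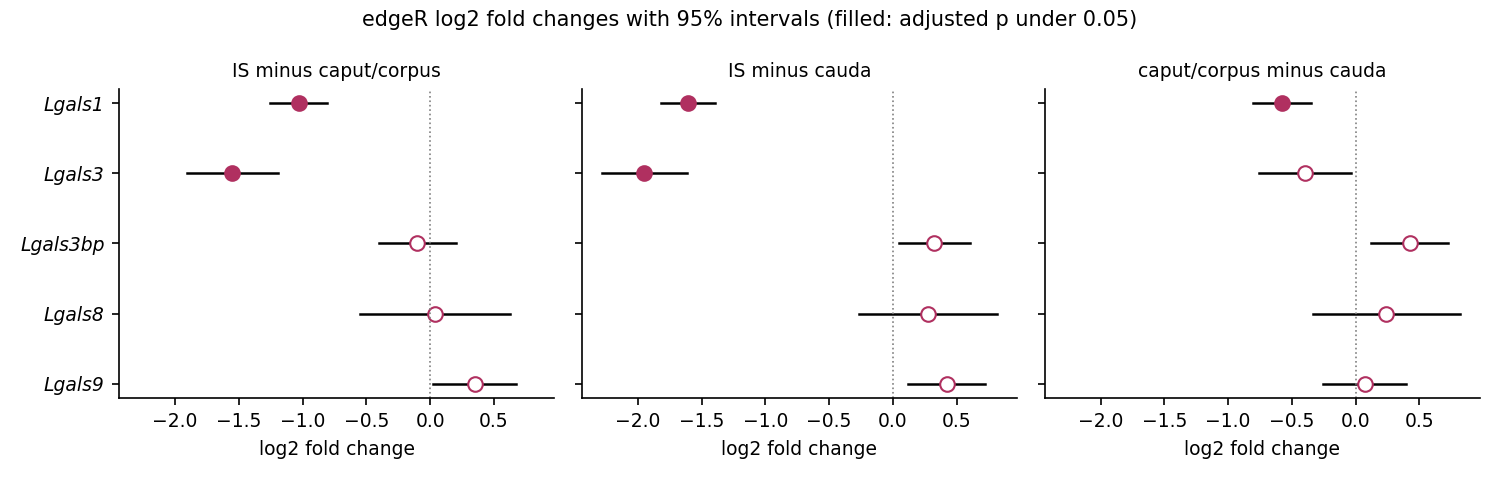
Log2 fold changes of the 5 genes (x axis) in IS minus caput/corpus, IS minus cauda and caput/corpus minus cauda, as points with 95% intervals from the edgeR fit, filled where the adjusted p is under 0.05. Lgals1 and Lgals3 lie below 0 in all 3 panels, from -1.95 for Lgals3 in IS minus cauda to -0.40 for Lgals3 in caput/corpus minus cauda, and the other 3 genes lie between -0.10 and 0.43.

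The galectin-3 ligand Lgals3bp (ENSMUSG00000033880), also called Mac-2 binding protein, had 388, 389, 330.2 and 259 CPM in IS replicates 1 to 4, 431, 346 and 283 in caput/corpus replicates 1 to 3, and 320.2, 251, 274 and 237 in cauda replicates 1 to 4. All 3 regions overlapped. The means were 342 ± 61.3 CPM in IS, 353 ± 74.2 in caput/corpus and 270.3 ± 36.6 in cauda. Log2 fold changes were -0.10 ± 0.14 for IS minus caput/corpus (95% interval -0.40 to 0.20, adjusted p = 0.872), 0.33 ± 0.13 for IS minus cauda (0.04 to 0.61, adjusted p = 0.112) and 0.43 ± 0.14 for caput/corpus minus cauda (0.12 to 0.73, adjusted p = 0.241). In both comparisons with IS, the interval of Lgals3 lay wholly below that of Lgals3bp. DESeq2 and voom called IS minus cauda (adjusted p = 0.0302 and 0.0201).

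Galectin-9, a ligand of the receptor TIM-3, is the product of Lgals9 (ENSMUSG00000001123). It had 388, 408, 307 and 218 CPM in IS replicates 1 to 4, 357, 214 and 166 in caput/corpus replicates 1 to 3, and 303, 274, 213 and 190.1 in cauda replicates 1 to 4. The regions overlapped, and within each region every Maj3 library lay above every Maj4 library. The means were 330.2 ± 86.8 CPM in IS, 246 ± 99.2 in caput/corpus and 245 ± 52.3 in cauda. The count files of the title series also differed in reads outside the gene counts. Reads without a unique place were 27.6% to 35.8% of all entries in Maj3 and 12.5% to 14.7% in Maj4. Reads on no gene were 7.75% to 11.3% in Maj3 and 18.6% to 24.8% in Maj4. The part of this difference in the levels was not tested.

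With the title series in the model, Lgals9 had a log2 fold change of 0.35 ± 0.15 for IS minus caput/corpus (95% interval 0.02 to 0.68, adjusted p = 0.295), 0.42 ± 0.14 for IS minus cauda (0.12 to 0.72, adjusted p = 0.0606) and 0.07 ± 0.15 for caput/corpus minus cauda (-0.25 to 0.40, adjusted p = 0.917). The gene lay near the threshold in IS minus cauda and gained a call in 9 of 25 alternatives, among them the replicate block (0.41, adjusted p = 0.0383), without IS replicate 4 (0.50, adjusted p = 0.0430), without caput/corpus replicate 3 (0.42, adjusted p = 0.0451) and DESeq2 (0.47, adjusted p = 0.00789). Its interval lies wholly above that of Lgals1 and Lgals3 in each of the comparisons with IS.

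Galectin-8 is a sensor of damaged endosomes known to recruit the autophagy receptor NDP52. The gene of NDP52, Calcoco2, had a mean of 0 CPM in each region. Galectin-8 is the product of Lgals8 (ENSMUSG00000057554). It had 111, 117, 94.2 and 68.9 CPM in IS replicates 1 to 4, 101, 108 and 73.7 in caput/corpus replicates 1 to 3, and 48.0, 90.4, 91.9 and 90.7 in cauda replicates 1 to 4. All regions overlapped, and cauda replicate 1 was the lowest of the 11 libraries. The means were 97.9 ± 21.7 CPM in IS, 94.5 ± 18.3 in caput/corpus and 80.2 ± 21.5 in cauda. Log2 fold changes were 0.04 ± 0.26 for IS minus caput/corpus (95% interval -0.55 to 0.62, adjusted p = 0.984), 0.28 ± 0.24 for IS minus cauda (-0.26 to 0.82, adjusted p = 0.505; 0.04 without cauda replicate 1, adjusted p = 0.894) and 0.24 ± 0.26 for caput/corpus minus cauda (-0.34 to 0.82, adjusted p = 0.795). Lgals8 overlaps Heatr1 on the opposite strand and the counting did not use strand, so reads of the shared stretch cannot be told apart. The deposited counts hold ambiguous reads as a class outside the gene counts, at 1.74% to 2.12% of all entries. Reads of that stretch may therefore be missing from Lgals8. The other 4 members overlap no gene in GENCODE M21.

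Scaled by gene length as deposited RPKM, which allows genes to be set side by side, the make-up of the 5 transcripts differed between regions. The sum over the 5 genes was 387 to 568 RPKM in IS, 664 to 872 in caput/corpus and 840 to 1165 in cauda. In IS the mean levels of Lgals3 (135 ± 23.0 RPKM), Lgals9 (123 ± 32.8), Lgals1 (104 ± 14.2) and Lgals3bp (98.0 ± 17.9) lay close together, with Lgals8 at 18.7 ± 4.21. In caput/corpus Lgals3 had 371 ± 52.3 RPKM, Lgals1 206 ± 15.6, Lgals3bp 101 ± 21.5, Lgals9 91.3 ± 37.2 and Lgals8 17.9 ± 3.45. In cauda Lgals3 had 525 ± 135 RPKM, Lgals1 313 ± 24.7, Lgals9 91.0 ± 19.5, Lgals3bp 77.2 ± 9.97 and Lgals8 15.3 ± 4.16.

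Lgals3 made up 25.8% to 31.9% of the sum in IS libraries, 43.0% to 51.1% in caput/corpus and 42.5% to 56.1% in cauda. Lgals9 made up 20.9% to 27.0% in IS, 9.29% to 15.3% in caput/corpus and 7.56% to 9.71% in cauda. The ratio of Lgals3 to Lgals9 was 0.961 to 1.52 in IS, 2.82 to 5.34 in caput/corpus and 4.52 to 6.76 in cauda, so the IS libraries lay apart from both others and those overlapped. The ratio of Lgals3 to Lgals1 was 1.24 to 1.35 in IS, 1.67 to 2.05 in caput/corpus and 1.16 to 2.20 in cauda, where its range took in both other regions. Ratios within a library do not depend on its scaling.

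**Figure D3:**
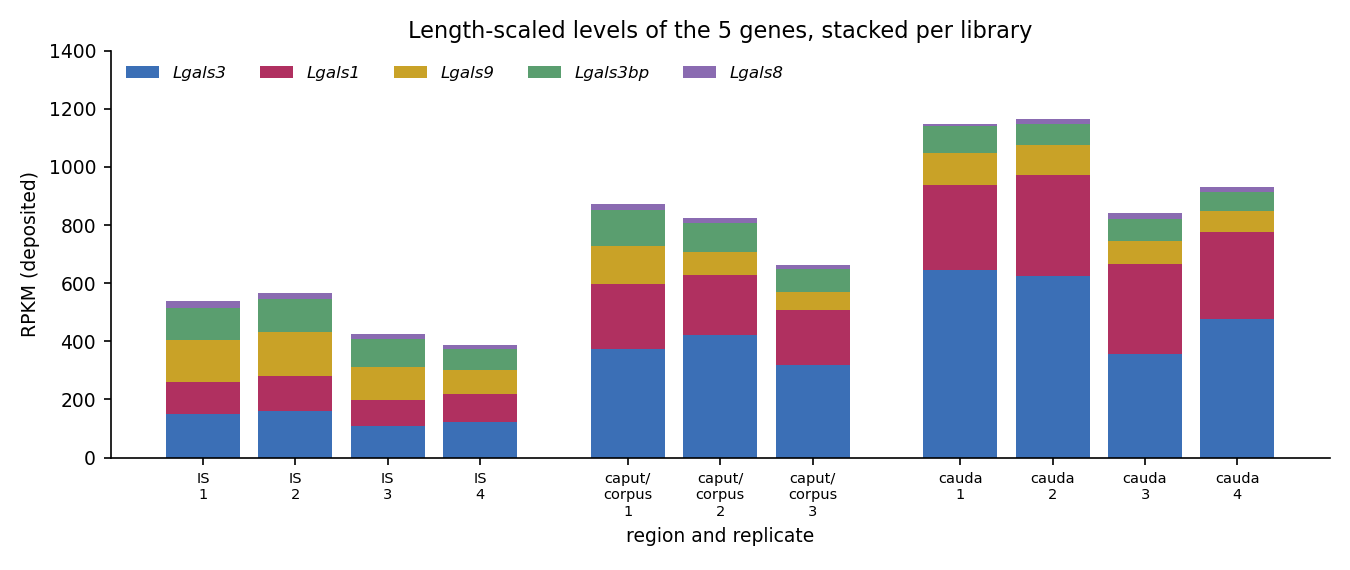
Deposited RPKM (y axis, from 0) of the 5 genes stacked for each of the 11 libraries (x axis, by region and replicate). The stacks reach 387 to 568 RPKM in IS, 664 to 872 in caput/corpus and 840 to 1165 in cauda, and the Lgals3 and Lgals1 blocks account for the taller stacks.

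Within the set, the profiles of Lgals1 and Lgals3 over the 11 libraries lay close, with a root mean square difference of 0.29 in log2 CPM after each gene was centred on its own mean. Lgals3bp and Lgals9 lay 0.28 apart, Lgals3bp and Lgals8 0.35, and Lgals8 and Lgals9 0.45. Either of Lgals1 and Lgals3 lay 0.84 to 1.10 from the other 3. Among 9053 genes with a mean of at least 10 CPM, the genes nearest to Lgals1 were Emp3, a membrane protein of the PMP22 family, at 0.15, Tagln2, an actin-binding protein, at 0.16, and Wfdc17, a secreted WAP domain protein, at 0.16. Emp3 averaged 138 CPM in IS, 268 in caput/corpus and 384 in cauda.

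Nearest to Lgals3 were Cd300lb, an activating receptor of myeloid cells, at 0.15, the predicted gene Gm9844 at 0.16 and Tmsb10, the actin monomer binder thymosin beta-10, at 0.16. Cd300lb averaged 24.2 CPM in IS, 78.1 in caput/corpus and 108 in cauda. Gm9844 is tagged as a retrogene in GENCODE M21, so its reads may be shared with its parent and its level is uncertain. Nearest to Lgals3bp were Fth1 (the ferritin heavy chain), Unc93b1 (which carries endosomal Toll-like receptors) and B2m (the light chain of MHC class I), at 0.11, 0.11 and 0.12. Nearest to Lgals9 were Prdx5 (a peroxiredoxin), Aif1 (the calcium-binding protein IBA1) and Rdh14 (a retinol dehydrogenase), at 0.12, 0.13 and 0.13, and nearest to Lgals8 were Pef1, Rnf139 and Mgat1 at 0.11, 0.14 and 0.14. For scale, the members' own root mean square from their means was 0.70 for Lgals1, 0.89 for Lgals3, 0.27 for Lgals3bp, 0.35 for Lgals8 and 0.42 for Lgals9. A flat gene would lie at that distance, so it is nearer to the last 3 than to Lgals1 or Lgals3. In cauda replicate 1, Lgals8 lay at -0.87 from its own mean, with Pef1, Rnf139 and Mgat1 at -0.71, -0.81 and -0.70. For Lgals9, Prdx5, Aif1 and Rdh14, every Maj3 library lay above every Maj4 library within each region. These distances are a description with no test.

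**Figure D4:**
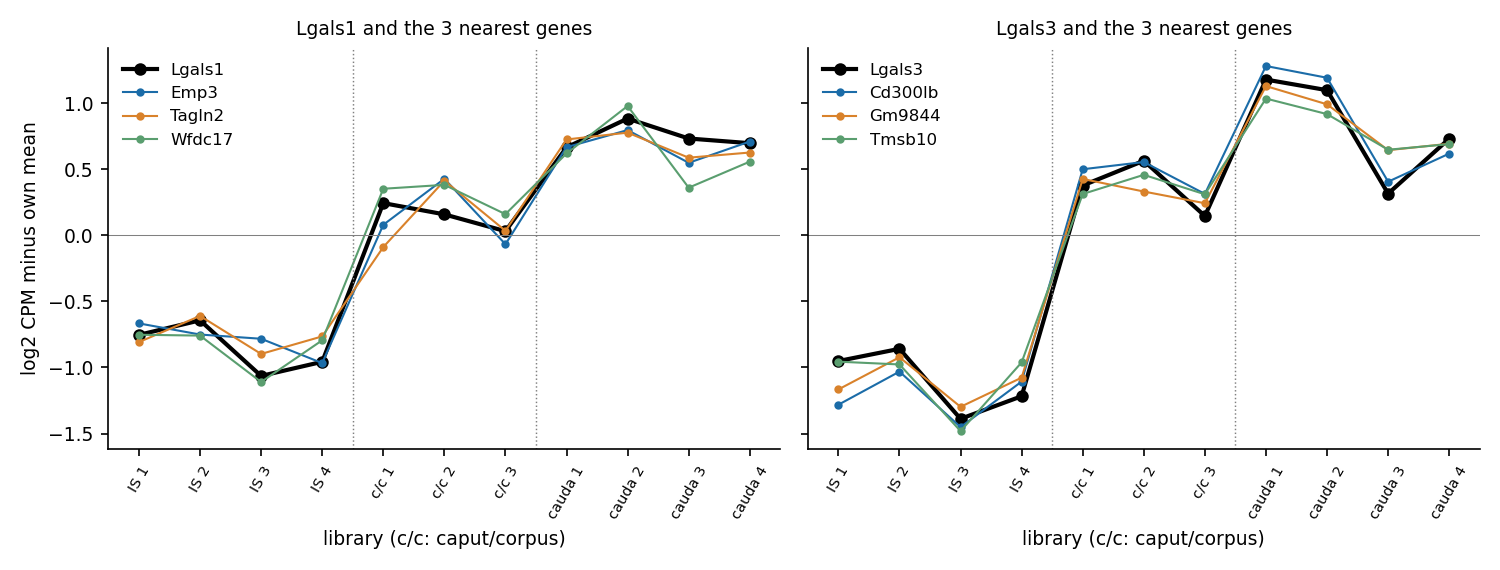
Log2 CPM minus the gene's own mean over the 11 libraries (y axis) for Lgals1 and Lgals3 in black, each with its 3 nearest genes in colour, over the libraries in region order (x axis, dotted lines between regions). All 8 profiles are below 0 in the 4 IS libraries and above 0 in the 4 cauda libraries, and the caput/corpus libraries overlap the cauda libraries for Lgals3 but not for Lgals1.

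The other galectins were scarce in these cells. Of the 7 on the list, no gene named Lgals6 was found in the data, and 2 had enough reads to be tested. By edgeR 0 had an adjusted p under 0.05 in any of the 3 comparisons. Over all genes 3.78% were called in IS minus caput/corpus, 16.5% in IS minus cauda and 0.615% in caput/corpus minus cauda. At an unadjusted p under 0.05 there were 2 in IS minus cauda, 1 in caput/corpus minus cauda and 0 in IS minus caput/corpus. Lgals4, a tandem-repeat galectin of the gut, had 4.70 to 9.99 CPM in IS, 6.65 to 9.85 in caput/corpus and 9.71 to 34.5 in cauda, where the highest value was that of cauda replicate 1 (log2 -1.10 ± 0.38 for IS minus cauda, adjusted p = 0.0801). Its reads are uncertain, since mouse Lgals6 is a near copy of it. Lgalsl, the galectin-related protein that has lost the usual sugar binding, had 5.06 to 7.08 CPM in IS, 0.776 to 5.00 in caput/corpus and 0 to 1.93 in cauda (log2 2.33 ± 1.03, adjusted p = 0.161). Lgals2, Lgals7 and the lens protein Grifin reached at most 0.527, 0.564 and 0.270 CPM, and Lgals12 had 0 reads in every library, where 3 reads would be 0.102 to 0.174 CPM.

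Among enzymes that shape the glycans galectins bind, Mgat4a, Mgat5 and Gcnt1 were higher in IS than in cauda. Of 13 listed genes 12 were tested, and these 3 were higher in IS and 0 lower, with a median log2 fold change of 0.19 over the list against 0.05 over all genes, where 7.40% of genes were called higher in IS. Mgat4a, which adds a further antenna, had 118 ± 61.4 CPM in IS, 62.6 ± 19.8 in caput/corpus and 40.9 ± 17.8 in cauda (IS minus cauda 1.45 ± 0.17, adjusted p = 0.000453). Mgat5, which adds the branch that raises galectin-3 binding, had 39.0 ± 16.4 CPM in IS, 18.6 ± 5.65 in caput/corpus and 16.0 ± 6.25 in cauda (1.22 ± 0.30, adjusted p = 0.0193). Gcnt1, the core 2 enzyme of O-glycans, had 106 ± 7.68 CPM in IS and 65.1 ± 17.1 in cauda (0.71 ± 0.18, adjusted p = 0.0250).

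Between IS and caput/corpus, Mgat4a was the 1 gene of 12 that was called (0.99 ± 0.19, adjusted p = 0.0177; list median 0.28 against 0.02 over all genes, with 0.794% called higher in IS), and Mgat5 missed the threshold (1.11, adjusted p = 0.104). Between caput/corpus and cauda 0 of 12 were called, where 0.615% of all genes were called (median 0.10 against 0.02). St6gal1, whose sialic acid caps block galectin-1, had means of 85.1 CPM in IS, 80.0 in caput/corpus and 72.4 in cauda and was not called (adjusted p = 0.849 and 0.425 for the comparisons of IS with caput/corpus and cauda). Several of these calls were lost when a single library was left out, with any of several libraries. Mgat4a in IS minus caput/corpus lost its call when IS replicate 1, 3 or 4 was left out, or caput/corpus replicate 2 or 3 (adjusted p = 0.0529, 0.0706, 0.0515, 0.0969 and 0.0739). In IS minus cauda, Mgat5 lost it without IS replicate 1, 3 or 4 or cauda replicate 4 (0.0518, 0.0587, 0.0548 and 0.0658), and Gcnt1 without IS replicate 1, 3 or 4 or cauda replicate 2 (0.0501, 0.0702, 0.0655 and 0.0513).

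Of 17 glycoprotein partners, all tested, 5 were higher in IS than in cauda and 3 lower (median 0.51 against 0.05 over all genes, of which 7.40% were higher in IS and 9.06% lower). Mertk, a receptor kinase for apoptotic cells, had 156 ± 57.0 CPM in IS, 73.5 ± 21.1 in caput/corpus and 39.6 ± 20.2 in cauda (IS minus cauda 2.00 ± 0.25, adjusted p = 0.000594). Havcr2, which encodes the galectin-9 receptor TIM-3, had 118 ± 20.8 CPM in IS, 57.2 ± 18.1 in caput/corpus and 34.7 ± 12.2 in cauda (1.77 ± 0.28, adjusted p = 0.00191). Trem2, Slc3a2 and Vsir made up the 5, with 1.02, 0.66 and 0.59.

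Cd44, the hyaluronan receptor, was lower in IS, with 107 ± 19.3 CPM in IS, 156 ± 30.6 in caput/corpus and 232 ± 30.6 in cauda (-1.13 ± 0.16, adjusted p = 0.00121). The other 2 lower in IS than in cauda were Spn, which encodes the sialomucin CD43, at -0.99 and Ptprc, which encodes the phosphatase CD45, at -0.40 (666 ± 73.3 CPM in IS and 874 ± 85.8 in cauda, adjusted p = 0.0493). Ptprc kept that call without cauda replicate 3 and lost it in the other 10 fits with a library left out (adjusted p 0.0523 to 0.144). Spn lost it without IS replicate 1, 2 or 3 (0.0679, 0.0696 and 0.0642). Between IS and caput/corpus Mertk alone was called of 17 (1.16 ± 0.27, adjusted p = 0.0440, list median 0.31), where 0.794% of all genes were called higher in IS. Mertk lost that call on leaving out any of 8 libraries, keeping it without cauda replicate 1, 3 or 4 (adjusted p up to 0.180 without caput/corpus replicate 2). Havcr2 and Ptprc were not called there (1.04 and -0.22, adjusted p = 0.0942 and 0.527), though Havcr2 was without caput/corpus replicate 1 (1.54, adjusted p = 0.0291) or cauda replicate 1 (1.04, adjusted p = 0.0253). None of the 17 was called between caput/corpus and cauda, where 0.615% of all genes were called (median 0.20).

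Of 16 genes of the response to damaged endosomes, in which cytosolic galectins take part, 15 were tested. The gene not tested, Calcoco2, had a mean of 0 CPM in each region. Of the 15, 0 were higher and 2 lower in IS than in cauda (median -0.17, where 9.06% of all genes were called lower in IS). Trim16, a ubiquitin ligase that works with galectin-3, had 4.43 ± 2.06 CPM in IS, 9.88 ± 0.776 in caput/corpus and 17.9 ± 7.66 in cauda (-2.05 ± 0.40, adjusted p = 0.00602). Tfeb, a transcription factor for lysosomal genes, had 82.0 ± 10.1 CPM in IS and 113 ± 29.0 in cauda (-0.44 ± 0.13, adjusted p = 0.0472), a call kept without cauda replicate 2 and lost in the other 10 fits with a library left out (adjusted p up to 0.141). In IS minus caput/corpus and in caput/corpus minus cauda 0 of 15 were called, against 3.78% and 0.615% of all genes. The list medians there were -0.14 and -0.02.

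The calls of these 3 lists were made on the named columns, and they depend on the source used for the 3 libraries in conflict. With the counts as filed none of them was made: for IS minus cauda the adjusted p ran from 0.0919 for Mertk to 0.890 for Ptprc, with log2 fold changes of 1.61 for Mertk, 1.24 for Mgat4a and Havcr2, -0.51 for Cd44 and -0.91 for Trim16, and for IS minus caput/corpus it was 0.650 for Mgat4a and Mertk. In the 8 libraries free of the conflict, Ptprc and Tfeb lost the call for IS minus cauda (adjusted p = 0.125 and 0.199), Mertk lost it for IS minus caput/corpus (adjusted p = 0.0513), Mgat5 and Havcr2 gained one there (adjusted p = 0.0198 and 0.0145), and the other calls were kept. In the Maj3 libraries alone none was made, with adjusted p for IS minus cauda from 0.0777 for Mertk to 0.549 for Mgat5.

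**Figure D5:**
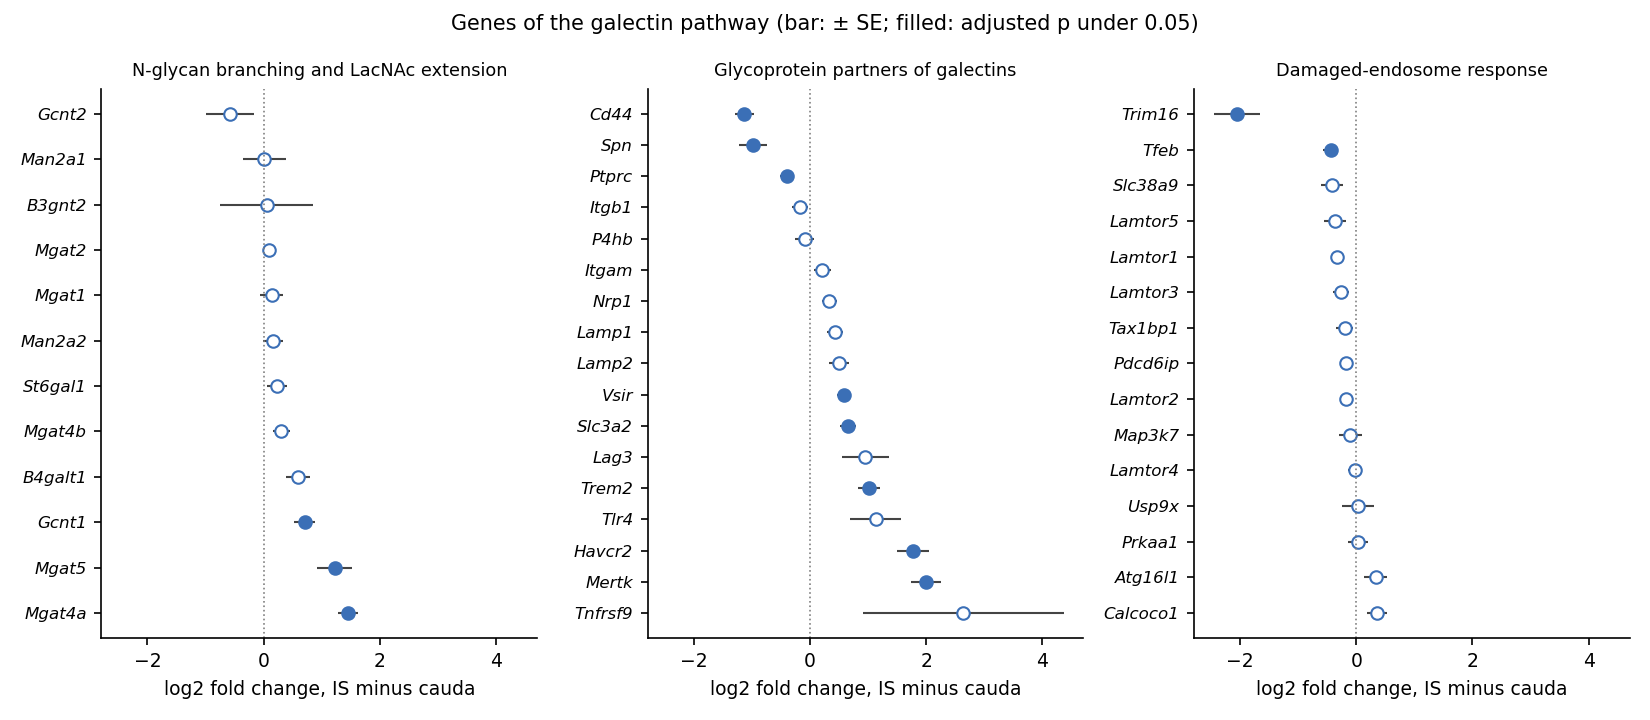
Log2 fold change, IS minus cauda (x axis), of each tested gene of 3 lists (panels), as points with the SE, filled where the edgeR adjusted p is under 0.05. Mgat4a, Mgat5 and Gcnt1 lie to the right in the glycan panel, Mertk and Havcr2 to the right and Cd44 to the left in the partner panel, and Trim16 stands farthest to the left at -2.05.

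Dendritic cell, monocyte and mast cell markers had lower sums in IS than in both later regions, as Lgals1 and Lgals3 had lower levels. None of the dendritic, monocyte, mast cell and macrophage markers was called between caput/corpus and cauda, where 0.615% of all genes were called by edgeR. The 8 dendritic cell markers, all with reads in every library, summed to 528 to 894 CPM in IS, 1799 to 2153 in caput/corpus and 1656 to 3030 in cauda, and 5 of the 8 were called lower in IS than in caput/corpus (2.98% of all genes) and 6 lower than in cauda (9.06%). The 8 monocyte markers, likewise present throughout, summed to 678 to 1508 CPM in IS, 2402 to 3267 in caput/corpus and 3234 to 4877 in cauda, with 6 called lower in IS than in caput/corpus and 8 lower than in cauda, against the same shares of 2.98% and 9.06%. The 7 mast cell markers summed to 41.4 to 121 CPM in IS, 768 to 1123 in caput/corpus and 1118 to 4130 in cauda, with all 7 called lower in IS than in either, against 2.98% and 9.06%. The 8 macrophage markers summed to 11740 to 16260 CPM in IS, 8595 to 14460 in caput/corpus and 6965 to 9424 in cauda, with 1 of the 8 called higher in IS than in caput/corpus (0.794% of all genes) and 6 higher than in cauda (7.40%). That 1 gene was Mertk, which is also on the list of glycoprotein partners, so its calls enter the counts of both lists. In these bulk libraries a change in the share of cells of a type and a change in RNA per cell cannot be told apart, and the part of the cell mixture in the galectin levels was not tested.

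Epithelial markers had their highest sums in IS. The 12 epididymal epithelium markers summed to 1098 to 2690 CPM in IS, 285 to 510 in caput/corpus and 3.38 to 6.08 in cauda, where 3 of the 12 had reads in every library. Of the 12, 7 were called higher and 1 lower in IS than in caput/corpus (0.794% and 2.98% of all genes), and 11 higher and 0 lower in IS than in cauda (7.40% and 9.06%). The gene lower in IS than in caput/corpus was Lcn5, with 1.32 CPM against 66.6. Epcam, Krt8, Krt18 and Cdh1 were not called there (edgeR adjusted p = 0.727, 0.952, 0.738 and 0.986). The order of the sums in IS and caput/corpus therefore did not hold for each marker. The 10 fibroblast and smooth muscle markers summed to 161 to 597 CPM in IS, 60.6 to 410 in caput/corpus and 22.2 to 84.7 in cauda, with IS and caput/corpus overlapping. Endothelial markers (6) summed to at most 26.3 CPM and sperm markers (6) to at most 0.820 CPM in IS, 6.71 in caput/corpus and 3.48 in cauda, with Acrv1 at 0 in all 3 regions, Tnp2 at 0 in IS and cauda, Odf1 at 0 in IS and Prm1 and Tnp1 at 0 in cauda. The part of these cells in the levels of the 5 genes was not tested.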

How the data were processed

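RNA was measured in 11 libraries of 3 regions. Per the submitters' processing notes the authors used STAR, HTSeq and edgeR with genome build mm9; versions and settings are not given in the sources used here. The deposited count files hold unnormalized whole counts of reads per Ensembl gene, from counting that did not use strand. The deposited RPKM table, scaled by the authors to gene length and effective library size, has a named column for each library. RPKM times gene length came to whole reads after division by the column's smallest step in 413413 of 413413 values (tolerance 0.001), which gave back the reads. For 8 libraries these equalled the count file of the same sample. For 3 they did not: the file under IS replicate 2 equalled no column, that under caput/corpus replicate 1 equalled column IS replicate 2, that under cauda replicate 1 equalled column caput/corpus replicate 1, and column cauda replicate 1 equalled no file. By the epithelial marker sums, the reads filed under caput/corpus replicate 1 (column IS replicate 2) had 2690 CPM, against 284.5 and 288.2 in caput/corpus replicates 2 and 3. Those filed under cauda replicate 1 (column caput/corpus replicate 1) had 509.6 CPM, against 3.38 to 6.08 in cauda replicates 2 to 4. Named columns were used, and the other sources were run as alternatives.

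The test was edgeR's quasi-likelihood test (edgeR 4.0.16, R 4.3.3) on these counts, in 1 fit of all libraries with the title series as covariate, TMM scaling and filterByExpr, with Benjamini-Hochberg adjustment over 15116 genes and a threshold of 0.05. Standard errors come from the F statistic. Alternatives used DESeq2 1.42.0, limma 3.58.1 on voom values and on log2(RPKM + 1) and log2(RPKM + 0.1), RLE scaling, no filter, robust estimation, no series, only 2 regions, the replicate block, each series alone, and each library left out. On simulated data for IS minus cauda (15116 genes) the test recovered 13% of 100 genes changed by 1 log2 unit and 53% of 100 changed by 2, with 1.49% false among the calls.

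The members and all lists were chosen with earlier results of these data known. The genes named are the 5 members, the 3 genes of most similar profile for each, the 3 called genes of smallest p in each list and comparison, and Ptprc, Havcr2, Mgat5 and St6gal1. Other list genes were named after their values were seen, to complete a count or to show markers that differed from their list. Lgals6 was on the list of other galectins, and no gene of that name was found in the data. The result of 1 marker list is not reported here. Symbols follow GENCODE M21, which holds 32860 of the 37583 identifiers.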

Additional observations from a re-analysis of the deposited data

Results flagged for a closer look

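In cauda replicate 1, Lgals8 had 48 CPM, far from the other cauda libraries at 90.4 to 91.9 CPM. The gap to its nearest neighbour was 0.965 of the group's range, above Dixon's limit for 4 samples. This is the library with 13434 genes that had a read. Among the members' groups of 4 libraries it was the only one past that limit, and chance passes some such groups. Cauda replicate 1 had 29712956 reads on genes, and cauda replicates 2 to 4 had 16873180 to 31737132. The part of that library's depth or quality in the value was not tested.

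The count file under IS replicate 2 holds reads that equal no column; they enter the fits of the counts as filed and no other comparison. In it, Lgals1 had 158 CPM, Lgals3 944, Lgals3bp 272, Lgals8 78.3 and Lgals9 249 CPM, all above the 0.115 CPM that a count of 3 reads would give there. IS libraries by the named columns had 70.6 to 94.7 CPM of Lgals1 and 200 to 290 of Lgals3.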

How the results depend on the processing

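Each result was computed under 25 alternatives, 11 of which leave out a library. Of 375 values for the 5 members, 326 kept direction and side of the threshold, 24 lost a call, 11 gained one and 14 turned direction, and the cause was not tested. Lgals1 and Lgals3 kept their direction in all of them.

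Members called for IS minus caput/corpus (2) fell to 0 in the Maj3 libraries alone and with the counts as filed. For IS minus cauda (2) there were 4 with DESeq2 and with voom, 1 in Maj3 alone, 0 with the counts as filed, and 2 to 3 with a library left out. For caput/corpus minus cauda (1) there were 0 with no title series, with only the 2 regions, in Maj4 or Maj3 alone, as filed and in the 8 matching libraries, and 0 to 1 with a library left out.

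Genes called for IS minus caput/corpus (571) were 1262 with DESeq2, 1707 with voom, 934 on log2(RPKM + 1), 233 with no title series, 914 with only the 2 regions, 954 in the 8 matching libraries, 0 in Maj3 alone and 0 as filed (edgeR; 404 and 1166 at an unadjusted p under 0.05, no other tool run), and 234 (without caput/corpus replicate 2) to 1353 (without cauda replicate 1) with a library left out. For IS minus cauda (2488) they were 4399 with voom, 1481 with no title series, 1144 in Maj4 alone, 30 in Maj3 alone, 4 as filed, and 1641 (without IS replicate 3) to 3124 with a library left out. For caput/corpus minus cauda (93) they were 637 with DESeq2, 668 with voom, 143 and 188 on log2(RPKM + 1) and log2(RPKM + 0.1), 184 with no filter, 8 with only the 2 regions, 28 in Maj4 alone, 5 in Maj3 alone, 52 in the 8 matching libraries, 0 as filed (edgeR; 992 at an unadjusted p under 0.05), and 29 (without caput/corpus replicate 1) to 205 (without cauda replicate 1).

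Label numbers recur between regions, and the labels do not say what a number marks. In their deviations from region means 9 of 10 same-numbered pairs correlated above 0.1 (0.021 to 0.474), and 8 of 11 libraries correlated best with their own number. Same-numbered libraries also share the title series. In deviations from the main model, which holds the series, the pairs correlated at -0.255 to 0.31. The main fit treated the libraries as unpaired, and these correlations do not settle whether they are. With the replicate number as a block, 398, 2362 and 41 genes and 2, 3 and 0 members were called in the 3 comparisons in the order above.

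The values that turned direction were small. Lgals8 for IS minus caput/corpus was -0.027 with only the 2 regions, -0.16 in Maj4 alone, -0.21 as filed, -0.0807 in the 8 matching libraries and -0.10 to 0.21 with a library left out; for IS minus cauda it was -0.15 in Maj4 alone, -0.0883 as filed and -0.0082 in the 8 matching libraries. Lgals9 for caput/corpus minus cauda was -0.0739 in Maj4 alone, -0.0618 in the matching libraries and -0.0605 to 0.20 with a library left out. Ptprc was 0.0418 as filed for IS minus caput/corpus and 0.0223 in Maj4 alone for caput/corpus minus cauda, where Mgat5 ranged from -0.0577 to 0.41 and St6gal1 from -0.08 to 0.22 with a library left out.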
